A study of Mus musculus with 2 samples.

Results

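The genes described here are 36 genes of the amino acid response, the set of transcripts known as targets or partners of the transcription factor Atf4, among 32285 genes measured. They were chosen by name, selected on earlier results of these same data in which Asns and several tRNA ligases were high in the transgenic library, so their ratio between genotypes is described and not tested. The members comprise 13 regulators, 7 enzymes of serine synthesis and mitochondrial one-carbon metabolism, 7 other amino acid enzymes, 7 amino acid carriers and 2 genes for a secreted protein and a receptor. All 36 symbols were found, on 37 feature rows, because Ddit3 has 2 rows, of which the overlapping locus held no UMI.

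The data are 2 single-cell RNA-seq libraries, 1 of wild type mice (WT) and 1 of MG53-TG, a line with global overexpression of MG53 (gene Trim72), a membrane repair protein of the tripartite motif family. Per the study, the WT mice were littermates. Both groups had received 2.5% DSS (dextran sulfate sodium, which damages the intestinal lining) and were sampled on day 7, so that an uninjured reference was not analysed here. Crypt cells that were 7-AAD negative and EpCAM positive were sorted before droplet capture, and the labels give neither the age of the mice nor how many contributed to a library. A figure legend of the study prints a group size above 1 for this assay, without tying it to the libraries. After filtering, 6963 WT and 4941 MG53-TG cells remained, with 108864593 and 91252276 unique molecular identifiers (UMIs). Of these, 6119 WT and 4606 MG53-TG cells lay outside immune and stromal clusters and are called epithelial below. Trim72 was found at 0.594 CPM in WT against 50.8 CPM in MG53-TG epithelial cells (63 and 4569 UMIs), where CPM is the share of all UMIs times 1000000.

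When an amino acid is scarce, uncharged tRNA activates the kinase Gcn2 (gene Eif2ak4), which phosphorylates the initiation factor eIF2. General translation then falls, while the Atf4 messenger is translated more. Atf4 protein pairs with C/EBP factors and raises genes for amino acid synthesis, amino acid uptake and tRNA charging, together with its own brakes. Other eIF2 kinases respond to unfolded protein, viral RNA or heme loss and converge on the same factor. The gut epithelium renews from crypt stem cells and places a high demand on amino acids for growth and secretion.

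Many known Atf4 binding sites carry a composite element in which a C/EBP site abuts an ATF site, with the core TGATGNAA, where N is any base. RefSeq promoter windows (GRCm38.p6, 250 bases before to 50 bases after the start) were at hand for 30 of the 36 members. The core, searched on both strands and with overlaps counted, lay in a window of 8 of these 30 (26.7%), against 4.51% of all 27025 genes with a window. The 30 bases around each match are shown for these 8 genes, which include 3 regulators, 3 enzymes and 1 carrier. Capitals mark the core or its reverse complement, read along the strand of the gene.
Asns: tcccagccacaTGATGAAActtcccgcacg
Pycr1: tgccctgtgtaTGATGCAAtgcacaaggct
Slc7a11: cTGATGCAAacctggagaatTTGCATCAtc
Chac1: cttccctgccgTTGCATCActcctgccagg
Nupr1: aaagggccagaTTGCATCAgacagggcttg
Trib3: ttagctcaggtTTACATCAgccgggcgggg
Got1: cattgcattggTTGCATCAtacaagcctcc
Vldlr: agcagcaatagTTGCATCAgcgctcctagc

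The Asns window, chr6:7693214-7693243 on the minus strand, has its core 23 bases before the RefSeq start, inside the longer gene model of GENCODE vM21. The Slc7a11 window, chr3:50443651-50443680 on the minus strand, holds 2 cores in opposite orientation, 66 and 47 bases before the start. In Chac1 (chr2:119351038-119351067, plus strand), Nupr1 (chr7:126625562-126625591, minus strand) and Vldlr (chr19:27216809-27216838, plus strand, the second of its windows) the core begins 193, 110 and 200 bases before the start, and those of Nupr1 and Vldlr lie within the longer GENCODE gene. Pycr1 (chr11:120643833-120643862, minus strand) and Got1 (chr19:43524689-43524718, minus strand) have it 103 and 102 bases before the start, and Trib3 (chr2:152344028-152344057, minus strand) 15 bases into the RefSeq transcript, ahead of the GENCODE gene start. Of the 8 genes with a core, 6 were past the fold used below in the epithelial cells, with a median log2 ratio of 0.83 and a range from 0.08 to 1.35. Of the 22 members whose windows lack it, 8 were past the fold, with a median log2 ratio of 0.44. The members were chosen on this contrast, so nothing is read from these counts. Outside the members, 24 of 294 compared genes with the core were higher by the same fold (8.16%) and 354 of 10754 without it (3.29%), with medians of 0.11 and 0.07. These genes still hold the tRNA ligases, several of which were high in the earlier results, so nothing is read from them either. None of the 6 serine and one-carbon genes with a window held the core. A match describes letters in a window and does not show that a factor binds there.

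The members as a group were higher in the MG53-TG library. For each gene the UMIs of all epithelial cells of a library were summed and divided by all UMIs of those cells. These are 3′ counts, 1 per captured molecule, so that they need no division by gene length. With 1 library for each genotype there is no replicate, so no test between genotypes was made and intervals (95%, exact) cover counting error only. In bulk sums of this kind, more cells of a type and more RNA per cell cannot be told apart, which is why each cell type follows below. The members summed to 1179 CPM in WT against 1705 CPM in MG53-TG epithelial cells, 1.45-fold (1.44 to 1.46). A member was counted as higher or lower at a log2 ratio of MG53-TG over WT of at least 0.5 or at most -0.5, with 1 CPM added to both levels and at least 30 UMIs over both libraries. All 36 members reached that minimum. At this fold 18 of 36 were higher, where 3.49% of 14656 genes were, and 1 was lower, where 0.832% were. The median log2 ratio was 0.53 over the members and 0.07 over all genes. Because the members were selected on this contrast, nothing is read from the distance to the background. Just inside the fold lay Pycr1 (0.57), Ddit3 (0.59) and Slc7a5 (0.59), and just outside it Slc38a2 (0.49), Atf4 (0.48) and Shmt2 (0.48).

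**Figure D1:**
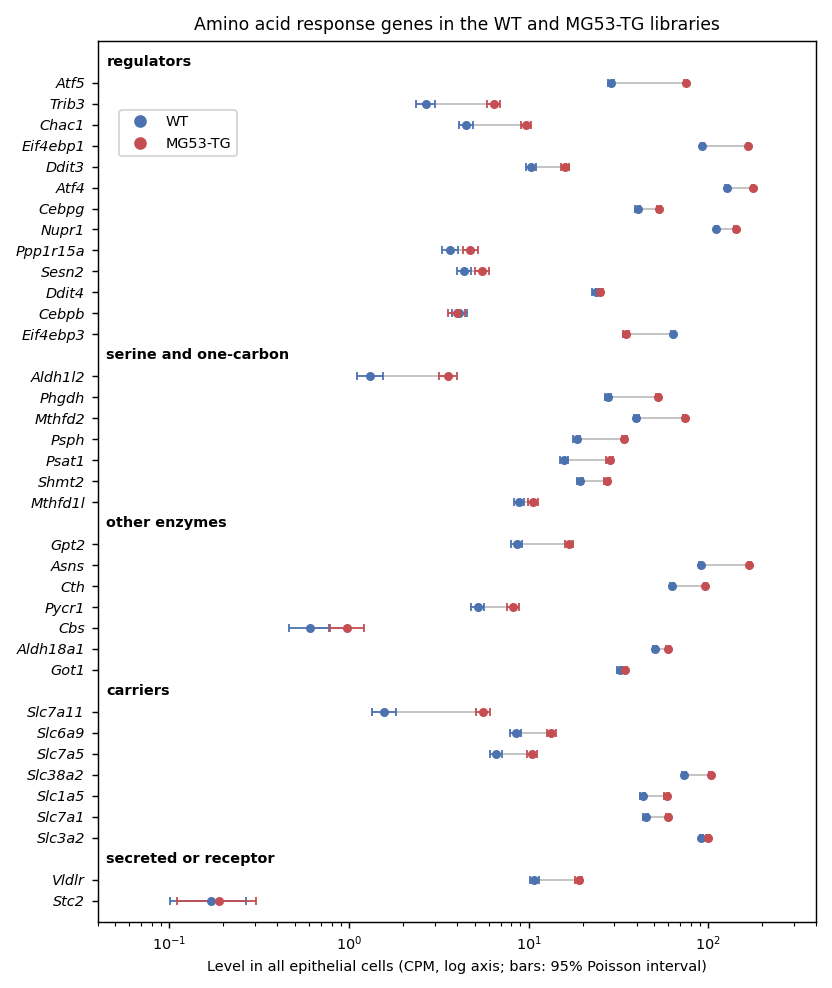
Level of each of the 36 members in all epithelial cells of the WT (blue) and MG53-TG (red) libraries, in CPM on a log axis, grouped by role; bars are 95% Poisson intervals. The MG53-TG point lies right of the WT point for 34 members by log2 ratio, with Eif4ebp3 the gene that moves furthest the other way.

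Among the regulators, 5 of 13 were higher and 1 was lower. Atf4 (chromosome 15, 80255184 to 80257541, plus strand) was the highest member in the WT library, at 127 CPM, and stood at 177 CPM in MG53-TG, 1.40-fold (1.37 to 1.43), which lies just below the fold. Its messenger says little about its protein, which is set mainly by translation. Atf5, a related factor that is under the same kind of translational control, differed most among the regulators, from 28.8 to 74.7 CPM, 2.59-fold (2.48 to 2.71). Ddit3, which encodes the stress factor CHOP, had 10.3 and 16.0 CPM, 1.55-fold (1.43 to 1.68). The C/EBP partners of Atf4 lay between the limits.

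The feedback genes and effectors of the response ranged widely. Trib3, a pseudokinase that binds Atf4 and restrains it, was at 2.67 CPM in WT against 6.41 CPM in MG53-TG, 2.40-fold (2.08 to 2.78). Chac1, an enzyme that degrades glutathione, was at 4.50 and 9.69 CPM, 2.15-fold (1.92 to 2.41). Nupr1, a small stress-induced chromatin protein, was at 111 and 142 CPM, 1.28-fold (1.25 to 1.31), but its log2 ratio of 0.35 ranged from 0.10 with the types at equal weight to 0.96 in cells of 10000 to 40000 UMIs. Both translation repressors of the list, which hold the cap-binding factor eIF4E, were measured well, and they went opposite ways. Eif4ebp1 was at 92.9 CPM in WT against 166.7 CPM in MG53-TG, 1.80-fold (1.75 to 1.84). Eif4ebp3 was at 63.5 CPM in WT against 34.8 CPM in MG53-TG, a ratio of 0.547 (0.524 to 0.571), and was the 1 member counted as lower. The other 5 regulators (the C/EBP factors Cebpb and Cebpg, the mTORC1 inhibitors Ddit4 and Sesn2, and Ppp1r15a, a phosphatase subunit that reverses eIF2 phosphorylation) had log2 ratios from -0.04 to 0.38. The intervals of Cebpb and Ddit4 include 1.

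Serine synthesis and mitochondrial one-carbon genes had the highest median of the roles in the epithelial sum, 0.85 on the log2 scale, with 5 of 7 higher. By type the median of this role was 0.93 in stem-like cells, where all 7 were higher, and 0.91 in goblet-like cells, but -0.18 in Paneth-like and -0.08 in enteroendocrine-like cells. The 3 enzymes that turn a glycolytic intermediate into serine stood close together in their ratios. Phgdh, which catalyses the first step, had 27.6 CPM in WT against 52.4 CPM in MG53-TG, 1.90-fold (1.81 to 1.99). Psat1, the aminotransferase of the second step, had 15.8 and 28.2 CPM, 1.79-fold (1.68 to 1.91). Psph, the phosphatase that releases serine, had 18.5 and 34.1 CPM, 1.85-fold (1.74 to 1.95). In the mitochondrion, carbon from serine passes through folate carriers. Mthfd2, which oxidises the folate intermediate there, had 39.8 and 73.8 CPM, 1.86-fold (1.79 to 1.93). Aldh1l2, the mitochondrial 10-formyltetrahydrofolate dehydrogenase, was low in both libraries, at 1.31 and 3.56 CPM (139 and 320 UMIs), 2.71-fold (2.22 to 3.34). Shmt2 and Mthfd1l, the remaining mitochondrial enzymes, lay between the limits, at log2 ratios of 0.48 and 0.23.

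Of the other amino acid enzymes, 4 of 7 were higher. Asns (chromosome 6, 7675169 to 7693254, minus strand), which makes asparagine from aspartate and glutamine, was at 91.0 CPM in WT against 169.5 CPM in MG53-TG, 1.86-fold (1.82 to 1.91). Gpt2, the mitochondrial alanine aminotransferase, was at 8.58 and 16.8 CPM, 1.96-fold (1.80 to 2.13). Cth, which releases cysteine from cystathionine, was at 62.9 and 96.3 CPM, 1.53-fold (1.48 to 1.58). The 2 listed enzymes of proline synthesis fell on opposite sides of the fold in the epithelial sum. Pycr1, the last enzyme of that route, was at 5.21 and 8.18 CPM, 1.57-fold (1.41 to 1.76). Aldh18a1, the first enzyme of the route, was more abundant and differed less, at 50.7 and 59.5 CPM, 1.17-fold (1.13 to 1.22). By type Pycr1 was past the fold in 3 of 5 epithelial types compared. It was not in goblet-like (1.18-fold, Aldh18a1 1.14-fold) or Paneth-like cells (1.24-fold, Aldh18a1 1.32-fold). Cbs, which makes cystathionine, was detected by 64 and 88 UMIs only, and Got1, the cytosolic aspartate aminotransferase, was at 32.3 and 34.3 CPM.

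Carriers divided in the same way, with 3 of 7 higher and all 7 above 0. Slc7a11, the cystine and glutamate exchanger, was at 1.57 and 5.56 CPM (166 and 500 UMIs), 3.55-fold (2.97 to 4.26). Its log2 ratio of 1.35, next to 1.34 for Atf5, depended on the 1 CPM added: it was 0.69 with 5 CPM and 1.76 with 0.1 CPM, where Atf5 was at 1.24 and 1.37. Its heavy chain partner Slc3a2, which also serves Slc7a5, was abundant and nearly level, at 91.5 and 99.7 CPM, 1.09-fold (1.06 to 1.12). Slc7a5, an exchanger of large neutral amino acids, was at 6.61 and 10.5 CPM, 1.58-fold (1.43 to 1.75). Both light chains were past the fold and the shared heavy chain was not. Slc6a9, a glycine transporter, was at 8.47 and 13.4 CPM, 1.58-fold (1.45 to 1.72). Slc38a2, a sodium-coupled carrier of small neutral amino acids, was at 73.1 and 103 CPM, 1.41-fold (1.37 to 1.46). Slc7a1, which imports arginine and lysine, was at 44.9 and 59.9 CPM, 1.34-fold (1.29 to 1.39), and the glutamine carrier Slc1a5 had a log2 ratio of 0.43. Of the last pair, Vldlr, a lipoprotein receptor, was at 10.8 and 19.0 CPM, 1.77-fold (1.64 to 1.90), a log2 ratio of 0.77 that became 0.26 with the 8 types at equal weight, whereas Stc2, a secreted glycoprotein, had 18 and 17 UMIs, too few to place its ratio (0.539 to 2.29).

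Cells were grouped by joint clustering without the members or Trim72 among the variable genes, and a cluster was named X-like from marker genes. In the stem-like cells (1002 WT, 495 MG53-TG) 15 of 33 members with enough UMIs were higher, where 2.27% of genes were, and 1 was lower, where 1.27% were, with a member median of 0.47. In absorptive progenitor-like cells (1283 and 668) 21 of 34 were higher, where 2.96% of genes were, and 1 lower, where 3.03% were, with a median of 0.71. The clusters of this class were unequally filled: the one led by gasdermin genes, with a member median of 0.50, held 634 WT and 227 MG53-TG cells, while the other 2 had medians of 0.83 (305 and 261 cells) and 0.76 (344 and 180 cells). In enterocyte-like cells (657 and 554) 20 of 28 were higher, where 5.03% of genes were, and 1 lower, where 3.28% were, with a median of 0.80. The 1 lower member was Eif4ebp3 in all 3 of these types.

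The secretory types had lower medians. In secretory progenitor-like cells (172 and 195) 11 of 31 were higher, where 6.94% of genes were, and 0 lower, where 3.26% were, with a median of 0.43. Its 2 clusters were unequally filled: the one led by Neurog3, with a member median of 0.44, held 118 WT and 101 MG53-TG cells, and the cycling one, with a median of 0.27, held 54 and 94. In goblet-like cells (1641 and 1842), the class with the most epithelial cells, 14 of 35 were higher, where 1.11% of genes were, and 1 (Eif4ebp3) lower, where 2.2% were, with a median of 0.37. The goblet-like cluster led by Sval1, with the highest member median of the class (0.46), held 206 WT and 430 MG53-TG cells. Medians of the other goblet-like clusters ran from 0.31 to 0.42. Goblet-like cells hold the mucus-secreting lineage, and the fewest other genes passed the fold there. In tuft-like cells (231 and 285) 8 of 24 were higher, where 7.36% of genes were, and 0 lower, where 4.02% were, with a median of 0.34. In enteroendocrine-like cells (269 and 169) 6 of 25 were higher, where 6.13% of genes were, and 1 (Psat1) lower, where 7.07% were, with a median of 0.15. This class also held 2 unlike clusters. The one led by Sst, with a member median of 0.23, held 141 WT and 102 MG53-TG cells. The one led by Afp and Tph1, with a median of -0.03, held 128 and 67. The medians of all genes were 0.04 and 0.02 there.

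Paneth-like cells (336 and 195), which secrete antimicrobial peptides at the crypt base, need separate mention. There 10 of 32 members were higher, where 14.0% of genes were, and 1 (Aldh1l2) lower, where 6.65% were, with a median of 0.26, while the median of all genes was itself at 0.16. Scaling by the median of ratios, which shifts this type by 0.23 on the log2 scale, placed the member median at 0.06. The class also differed in its make-up: a cluster led by defensin genes held 240 of 336 WT but 93 of 195 MG53-TG cells. Within that cluster the member median was -0.11 and the median of all genes -0.19, and in the other Paneth-like cluster they were 0.30 and -0.02.

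T cell-like cells (798 and 317), which carried T cell markers, serve as a second cell type from the same libraries. The study describes the cells it analysed as negative for CD45, while the gene of CD45, Ptprc, was found in 96.1% and 95.1% of the cells of the 2 clusters named T cell-like. In these cells 2 of 19 members were higher (Ddit4 and Eif4ebp1), where 7.4% of genes were, and 1 (Slc7a1) lower, where 6.37% were, with a median of 0.06. Summed, the members were at 855 and 920 CPM in these cells, a fold of 1.08 (0.999 to 1.16). Among the genes with enough UMIs in T cell-like cells, Atf4 was at 88.1 and 72.3 CPM, 0.821-fold (0.630 to 1.06). Phgdh was at 51.5 and 54.2 CPM, 1.05-fold (0.764 to 1.44), and Mthfd2 at 57.7 and 55.9 CPM, 0.969-fold (0.710 to 1.31). These intervals hold the value 1, and all 3 end below the ratios seen in the epithelial sum. Other compared members had intervals that hold 1 and also reach their ratio in the epithelial sum. Among them were Eif4ebp1 (1.54-fold, 0.889 to 2.63), Cebpg (1.27-fold, 0.871 to 1.85) and Shmt2 (1.09-fold, 0.666 to 1.76). At 2692 and 3420 UMIs per cell in the median, 17 members had too few UMIs to be compared.

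**Figure D2:**
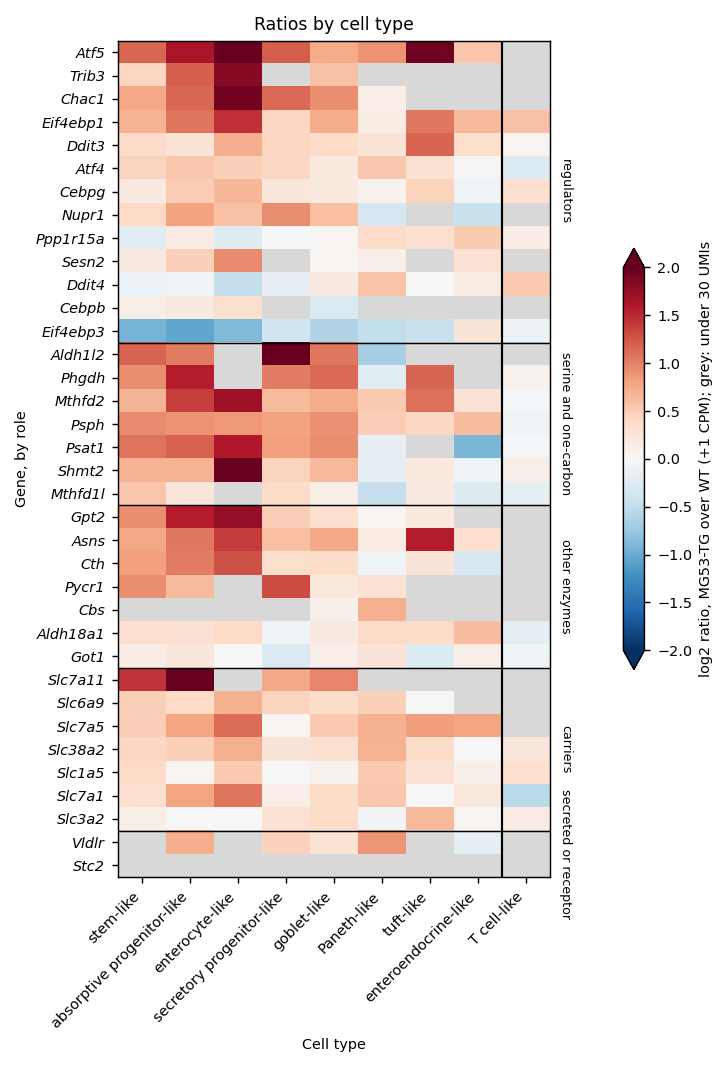
Log2 ratio of MG53-TG over WT (1 CPM added) for each member, by role, in 8 epithelial types and in T cell-like cells; grey marks genes under 30 UMIs. Red fills most of the absorptive columns, the Eif4ebp3 row is blue from stem-like to tuft-like cells, and the T cell-like column is mostly pale or grey.

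Asns was above its WT level in each of the 8 epithelial types and past the fold in 6. In WT the order of its level ran from secretory progenitor-like cells (162 CPM) through goblet-like (111 CPM), stem-like (105 CPM), absorptive progenitor-like (97.9 CPM) and enteroendocrine-like cells (85.9 CPM) to Paneth-like (51.2 CPM), enterocyte-like (48.1 CPM) and tuft-like cells (18.0 CPM). In this order the counting intervals of neighbours overlap from goblet-like through stem-like and absorptive progenitor-like to enteroendocrine-like cells, and again for Paneth-like and enterocyte-like cells, so these ranks are not resolved. In MG53-TG the levels were 246 CPM in secretory progenitor-like, 204 CPM in absorptive progenitor-like, 189 CPM in goblet-like, 182 CPM in stem-like, 128 CPM in enterocyte-like, 109 CPM in enteroendocrine-like, 57.4 CPM in Paneth-like and 55.4 CPM in tuft-like cells. The fold was highest in tuft-like (3.08, 2.24 to 4.32) and enterocyte-like cells (2.67, 2.36 to 3.03). It was lowest in enteroendocrine-like (1.27, 1.03 to 1.57) and Paneth-like cells (1.12, 0.985 to 1.27), and the last interval includes 1. In T cell-like cells only 8 and 10 UMIs of Asns were counted.

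Atf5 was past the fold in all 8 epithelial types. Its ratio was 5.65-fold (4.69 to 6.87) in enterocyte-like cells, where it stood at 18.5 CPM in WT against 104 CPM in MG53-TG. In absorptive progenitor-like cells it was at 40.0 and 126 CPM, 3.16-fold (2.93 to 3.41). In tuft-like cells it was at 15.3 and 61.7 CPM, 4.03-fold (2.88 to 5.78). Its lowest ratio, in enteroendocrine-like cells, was 1.49-fold (1.07 to 2.08). Atf4, by contrast, kept its ratio between 1.02-fold in enteroendocrine-like and 1.45-fold in absorptive progenitor-like and Paneth-like cells, and it passed the fold only in those last 2 types.

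Enzymes of the response were found in different lineages. Among the epithelial types Phgdh was highest in the crypt types: it was at 72.4 CPM in WT against 139 CPM in MG53-TG stem-like cells, and at 54.5 and 113 CPM in secretory progenitor-like cells. In absorptive progenitor-like cells it was at 15.9 and 49.5 CPM, 3.11-fold (2.76 to 3.51). In enterocyte-like cells Phgdh had 4 and 17 UMIs, too few to compare, whereas Psph was at 5.38 and 10.7 CPM there, 1.98-fold (1.33 to 3.004). Mthfd2 was spread more widely and was past the fold in 7 of 8 types, up to 3.37-fold (2.74 to 4.17) in enterocyte-like cells.

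Cth was highest in absorptive progenitor-like cells. It was at 126 CPM in WT against 262 CPM in MG53-TG absorptive progenitor-like cells, 2.07-fold (1.98 to 2.17), and at 41.6 and 101 CPM in enterocyte-like cells, 2.44-fold (2.13 to 2.803). In stem-like cells it was at 85.9 and 152 CPM, 1.77-fold (1.66 to 1.88), and in enteroendocrine-like cells at 49.5 and 38.8 CPM. In goblet-like cells it was near 11.1 and 14.6 CPM, 1.32-fold (1.13 to 1.54). Gpt2 had the opposite distribution, with its highest level in goblet-like cells (25.7 and 32.7 CPM, 1.27-fold, 1.15 to 1.41). Its ratio was highest in enterocyte-like (1.16 and 6.35 CPM, 5.46-fold, 2.57 to 13.3) and absorptive progenitor-like cells (1.30 and 5.85 CPM, 4.52-fold, 3.02 to 6.92), where it was scarce. Goblet-like cells were 1842 of 4606 MG53-TG and 1641 of 6119 WT epithelial cells, so the ratios of Gpt2 and Vldlr in the epithelial sum mix cell numbers with levels.

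Vldlr and Nupr1 were secretory genes. Vldlr was at 33.7 and 41.0 CPM in goblet-like, 47.1 and 41.6 CPM in enteroendocrine-like and 13.6 and 26.1 CPM in Paneth-like cells, the last a ratio of 1.92 (1.55 to 2.37). In WT, Nupr1 was at 68.3 CPM in secretory progenitor-like, 194 CPM in goblet-like and 509.7 CPM in Paneth-like cells. In MG53-TG it was at 132 CPM and 294 CPM in the first pair, but at 404 CPM in Paneth-like cells, a ratio of 0.792 (0.757 to 0.828). The Nupr1 ratio had opposite signs in goblet-like and Paneth-like cells, which was not tested, and the Paneth-like class differed in make-up as given above.

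Of the 7 carriers, 3 were past the fold in absorptive progenitor-like cells and 5 of 6 compared in enterocyte-like cells. Slc7a11 was at 0.550 CPM in WT against 5.97 CPM in MG53-TG absorptive progenitor-like cells (14 and 100 UMIs), 10.9-fold (6.18 to 20.6). In stem-like cells it was at 1.72 and 6.45 CPM, 3.74-fold (2.56 to 5.55), and in goblet-like cells at 3.34 and 7.52 CPM, 2.25-fold (1.73 to 2.95). No UMI of Slc7a11 was counted in the tuft-like cells of either library. Slc7a5 was past the fold in 6 of 8 types and Slc6a9 in 1 of 7. Chac1 reached 4.57-fold (2.99 to 7.25) and Trib3 3.86-fold (2.83 to 5.36) in enterocyte-like cells, at 17.3 and 28.1 CPM in MG53-TG. Aldh1l2 was at 0.757 and 2.95 CPM in stem-like and 2.21 and 5.66 CPM in goblet-like cells, 3.89-fold (2.19 to 7.18) and 2.56-fold (1.86 to 3.56). In Paneth-like cells it was at 3.498 and 1.84 CPM (47 and 12 UMIs), a ratio of 0.526 (0.254 to 1.008) whose interval includes 1. Stc2 had too few UMIs in every type.

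Eif4ebp3 was below its WT level in 7 of 8 epithelial types. Its strongest differences lay in absorptive progenitor-like (85.5 and 41.1 CPM, ratio 0.480, 0.440 to 0.523), stem-like (59.2 and 30.7 CPM, 0.519, 0.465 to 0.578) and enterocyte-like cells (164 and 88.0 CPM, 0.538, 0.488 to 0.592). In enteroendocrine-like cells it was at 24.3 and 29.3 CPM, 1.21-fold (0.802 to 1.81). In absorptive progenitor-like and enterocyte-like cells, Eif4ebp1 was 2.12-fold (2.004 to 2.23) and 2.81-fold (2.41 to 3.29) higher.

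**Figure D3:**
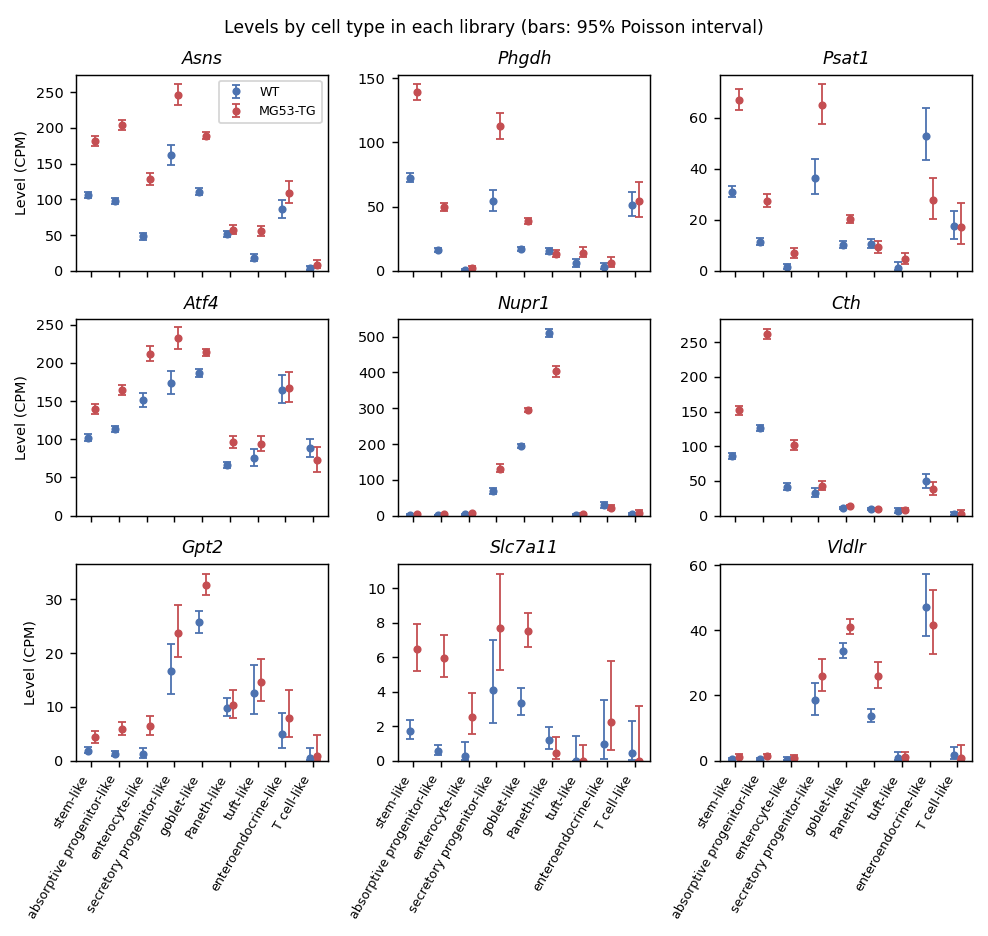
CPM of 9 members in each cell type of the WT (blue) and MG53-TG (red) libraries, with 95% Poisson intervals; each panel has its own axis from 0. Phgdh is high in stem-like and secretory progenitor-like cells, Psat1 there and in WT enteroendocrine-like cells, Cth in absorptive progenitor-like and stem-like cells, and Nupr1, Gpt2 and Vldlr in secretory cells. MG53-TG points lie below WT for Nupr1 in Paneth-like cells and for Psat1, Nupr1, Cth and Vldlr in enteroendocrine-like cells, among others.

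Clusters and single cells were also compared. Of 22 epithelial clusters with at least 20 cells in both libraries, the member median was above 0 in 20, where the median of all genes was above 0 in 18, and it reached the fold in 8. The member median was above that of all genes in 21, and the Asns ratio was above 1 in 21, with an interval above 1 in 19. The defensin-led Paneth-like cluster was the exception for Asns, at 0.851 (0.719 to 1.003). To compare cells at equal depth, each was thinned to the UMI minimum of the cell filter, which no kept cell was under. An epithelial cell then held 1.59 member UMIs in WT and 2.24 in MG53-TG on average, with an SD between cells of 1.40 and 1.80. In enteroendocrine-like cells the means were 1.76 and 1.62, lower in MG53-TG. The median was 1 member UMI per epithelial cell in WT and 2 in MG53-TG, and the share of these cells with none was 23.7% and 15.9%. An Asns UMI was present in 10.6% (9.83 to 11.4) of WT and 18.5% (17.4 to 19.7) of MG53-TG epithelial cells, against 58.8% and 74.4% before thinning, at median depths of 15666 and 18654 UMIs. In Paneth-like cells the thinned shares were level, at 8.33% (5.61 to 11.8) and 8.21% (4.76 to 13.0). In T cell-like cells, where Asns UMIs may be free RNA, the thinned shares were 0.251% (0.0304 to 0.902) and 0.631% (0.0765 to 2.26).

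Several properties of the libraries moved with genotype. The mitochondrial filter removed 33.7% of WT and 46.1% of MG53-TG barcodes that passed the other limits, the counting programs differed in version, and 46 barcodes of at least 500 UMIs occurred in both libraries. Within cells matched for mitochondrial share, Asns was 1.69-fold (1.56 to 1.83) higher at 0 to 2% and 2.17-fold (1.995 to 2.36) higher at 10 to 25%, and it lay between these values in the other 3 bins. Within cells matched for depth, its fold was lowest at 5000 to 10000 UMIs (1.33, 1.16 to 1.53), and highest in cells of at least 40000 UMIs (2.18, 2.03 to 2.34). The member median lay between 0.29 and 0.67 over the 10 bins and above the median of all genes in each, which itself ranged from -0.03 to 0.32. In the bin of 0 to 2% mitochondrial UMIs, where the medians of Paneth-like cells lie (1.46% and 1.43%), 25.2% of all genes were past the fold, so that its 22 of 35 members stand against a raised background.

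**Figure D4:**
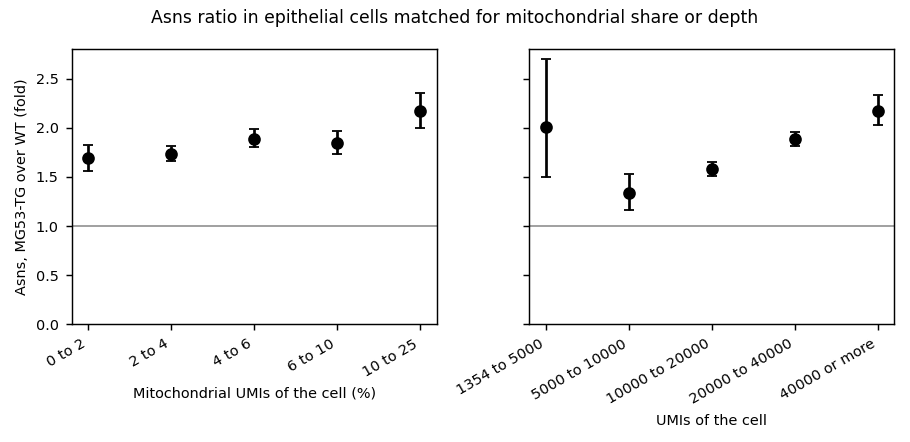
Fold of Asns, MG53-TG over WT, in epithelial cells binned by mitochondrial share (left) and by UMIs per cell (right), with 95% intervals. Each of the 10 points lies above 1, from 1.33 to 2.18.

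Other cell types and gut regions were also unequal in the libraries. The 5 erythroid markers, all detected, summed to 306 CPM in WT against 0.545 CPM in MG53-TG epithelial cells, the 12 T cell markers to 54.8 and 26.3 CPM, and the 10 Paneth markers found to 76209 and 46231 CPM. The 10 goblet markers summed to 55182 and 84162 CPM, and 8 markers of the distal ileum to 597 and 374 CPM, of which Fabp6 made up 342 and 140 CPM. The 8 markers of the proximal intestine summed to 551 and 593 CPM, while 7 of 13 colon genes were at 0 in both libraries. In WT barcodes under 100 UMIs, which hold free RNA, the members made up 1052 CPM, 0.892 of their level in WT epithelial cells, and the MG53-TG table held no such barcodes. Of 17 genes known to respond to tissue dissociation, 16 were compared and 2 were higher in MG53-TG (Fos and Fosb), where 3.49% of all genes were. Their median was 0.26, against 0.07 for all genes. By type it ran from -0.005 in goblet-like to 0.43 in Paneth-like cells, and it was 0.30 in T cell-like cells. In the epithelial sum, 13 of the 16 had a log2 ratio above 0. The list summed to 1122 and 1119 CPM, of which Hspa8 made up 804 and 708 CPM, and the other 16 genes 318 and 411 CPM. The part of these differences in the member ratios was not tested.

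Genes upstream of, beside and parallel to the response were taken from lists written with earlier results known. Of 15 eIF2 kinases, eIF2 subunits and their factors, 1 was higher, with a median of 0.05. The 1 was Eif2ak4, which encodes Gcn2, at 5.77 and 8.67 CPM, named here after its value was seen. All genes compared were past the fold in 3.49% (higher) and 0.832% (lower) of cases, the shares beside which the counts of these lists stand. Of 20 cytosolic tRNA ligases, which charge tRNA with amino acids, 8 were higher, with a median of 0.36, led by Nars (255 and 406 CPM, 1.59-fold, 1.57 to 1.62), Yars, Aars and Cars. Of the 17 mitochondrial ligases 0 were past the fold in either direction, a count near those shares, and their median was -0.12, against 0.07 for all genes. The core TGATGNAA lay in a window of 5 of 13 cytosolic ligases and 0 of 14 mitochondrial ligases with a window, against 4.51% of all genes with one. The 0 of 14 lies near that share. Of the 21 cytosolic ligases listed, the others had no window, Nars and Cars among them.

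Parallel stress genes were mixed. All 22 genes of protein folding in the endoplasmic reticulum had a log2 ratio above 0 in the epithelial sum, with 6 higher and a median of 0.43. Within types their median was 0.71 in Paneth-like cells and between 0.07 (stem-like) and 0.31 (enterocyte-like) in the other 7 epithelial types. The sum was led by the chaperone Hyou1 (27.9 and 49.1 CPM, 1.76-fold, 1.68 to 1.85) and the secretory-cell sensor Ern2 (61.5 and 103 CPM, 1.68-fold, 1.63 to 1.73). Of 7 mitochondrial chaperone and stress genes compared, 1 was higher, the stress hormone Gdf15 (1.25 and 3.05 CPM, named after its value was seen), and the chaperones Hspe1 (491 and 417 CPM) and Hspd1 (396 and 341 CPM) were among the 5 below 0. Folate enzymes outside the members, which act mostly in the cytosol and nucleus, had a median of -0.15 and 0 of 12 past the fold in the epithelial sum. By type their median was 0.09 in stem-like cells and negative in the other 7 epithelial types, down to -0.28 in goblet-like cells. Higher were 1 of 11 in stem-like and 1 of 8 in tuft-like cells, where 2.27% and 7.36% of all genes were. The largest counts of lower genes were 4 of 9 in Paneth-like, 3 of 9 in enteroendocrine-like and 2 of 12 in goblet-like cells. Of all genes, 6.65%, 7.07% and 2.2% were lower in these types. In the sum their largest differences were in Mthfd1 (26.4 and 19.2 CPM, 0.724, 0.682 to 0.769) and Shmt1 (28.6 and 21.0 CPM, 0.735, 0.693 to 0.778), the cytosolic counterparts of the mitochondrial enzymes given above.

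Amino acid carriers outside the members had a median of -0.00 and 0 of 16 past the fold in the epithelial sum, with Slc38a1 (45.0 and 62.1 CPM) and Slc7a8 (43.4 and 32.1 CPM) at the ends. In Paneth-like cells 6 of 16 were lower, where 6.65% of genes were, and 2 were higher, where 14.0% were. In enteroendocrine-like cells 4 of 12 were lower, where 7.07% of genes were, and 0 were higher, where 6.13% were. Antioxidant genes, most of them known targets of the factor Nrf2, had a median of -0.17, with 0 of 10 higher and 1 lower, the glutathione reductase Gsr (77.0 and 51.3 CPM, 0.666, 0.642 to 0.690). The remaining 9 lay between -0.44 and 0.17.

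**Figure D5:**
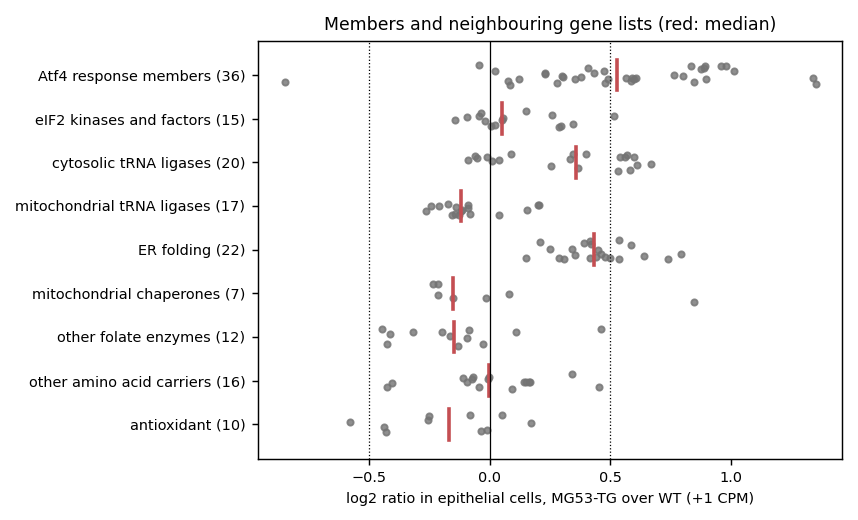
Log2 ratio of each gene in the epithelial sum, for the 36 members and 8 neighbouring lists, with the number of genes compared in brackets; red bars are medians and dotted lines the fold used for counts. The medians are 0.53 for the members, 0.43 for folding, 0.36 for cytosolic ligases and between -0.17 and 0.05 for the other 6 lists.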

How the data were processed

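The data were 1 single-cell 3′ RNA-seq library for each of WT and MG53-TG, from sorted intestinal epithelial cells. The values deposited by the authors were UMI counts per gene and barcode, not scaled. Per the file headers they were made with Cell Ranger 4 (WT, all barcodes) and 6.0.1 (MG53-TG, at least 500 UMIs); the submitters' processing notes name mm10 and Seurat. Strand use and the treatment of reads mapping to several genes are not given in the sources used here. The members and all gene lists were chosen with earlier results of these data known.

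Barcodes were kept at 1354 UMIs or more, with 200 genes or more and a mitochondrial share of 25% or less. Scrublet marked 1 WT and 2 MG53-TG cells by its automatic threshold, so the highest scores were removed at 0.8% per 1000 cells (438 and 212 cells). Both libraries were clustered together in scanpy 1.11.5 (2000 variable genes chosen over both libraries, 30 components, 15 neighbours, Leiden at resolution 1), leaving out the members and Trim72. A cluster was named from at least 3 markers found in at least 10% of its cells at 1.5 times the level elsewhere; clusters whose 10 leading genes held more markers of another list stayed unnamed but counted as epithelial, and these rebuilt names may differ from the study's. CPM is the sum of a gene's UMIs over all UMIs of the cells. Levels have exact Poisson intervals, ratios exact conditional binomial and shares Clopper-Pearson intervals, at 95%. Intervals were tested on simulated Poisson counts. Of 36 members, 26 were named with full values: those past the fold and the 3 highest by level of each role. Of another list up to 4 genes at 20 CPM or more with the largest ratio could be named. By type, values were given for Asns, Atf4 and the 3 members of each role with the largest ratio. Values by type of Psat1, Psph, Nupr1, Eif4ebp1, Eif4ebp3, Cebpg, Shmt2, Pycr1 and Aldh18a1 were added after they were seen. Gene coordinates are GENCODE vM21 (GRCm38); the promoter search and sequences are from RefSeq. The alternatives covered scaling, pseudocount, UMI minimum, cell filters, doublets and clustering.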

Additional observations from a re-analysis of the deposited data

Results flagged for a closer look

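Psat1, the aminotransferase of serine synthesis, differed in direction between cell types. In enterocyte-like cells its log2 ratio of MG53-TG over WT was 1.60 (1.60 and 6.86 CPM, 11 and 54 UMIs), and in enteroendocrine-like cells it was -0.92 (52.9 and 27.6 CPM, 109 and 49 UMIs). Both counting intervals exclude equal levels, at 4.29-fold (2.22 to 9.10) and 0.521-fold (0.364 to 0.736). With 1 library of each genotype the difference between the types was not tested. The enteroendocrine-like class also held unlike clusters that were unequally filled, as given above. The level of Psat1 in WT enteroendocrine-like cells was above that in WT stem-like cells (31.0 CPM), and stem-like cells of MG53-TG were at 67.0 CPM, the direction of the epithelial sum.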

How the results depend on the processing

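Under 15 alternatives, the number of members past the fold stayed between 13 and 19 for higher and at 1 for lower. The 13, reached with a pseudocount of 5 CPM, had lost Aldh1l2, Ddit3, Pycr1, Slc6a9 and Slc7a5. The median log2 ratio in the epithelial sum, 0.53, was 0.44 with median of ratios scaling, 0.43 with a pseudocount of 5 CPM and 0.36 with the 8 types at equal weight. Equal weight removes the unequal numbers of the named types, but not those of clusters within a type, and it leaves out the unnamed clusters. It also lost Gpt2, Slc6a9 and Vldlr. Pycr1 was also lost with median of ratios scaling and with a mitochondrial limit of 50%, and Cth with the mean of single-cell CPM and in cells of 10000 to 40000 UMIs. Nupr1, at 0.35 and uncalled, was past the fold in those cells (0.96) and with the mean of single-cell CPM (0.76). In absorptive progenitor-like cells, 0.71 became 0.47 with a pseudocount of 5 CPM and 0.39 with a mitochondrial limit of 50%. The median in Paneth-like cells turned to -0.09 with that limit and to -0.07 with doublets kept, and in T cell-like cells it ranged from -0.01 to 0.11. Other medians by type kept their sign. Of 388 values of single members, 387 kept their sign, and the other was Stc2. Cells of 10000 to 40000 UMIs held too few T cell-like cells for a value, Stc2 fell under the minimum with 100 UMIs and in those cells, and equal weighting of types gives no value by type. No paired analysis was possible because each genotype has 1 library. Without replicates, differences between mice, libraries and genotypes cannot be told apart, and depth limits Stc2 and Cbs, and left 17 members in T cell-like, 12 in tuft-like and 11 in enteroendocrine-like cells without a comparison.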
